A study of Mus musculus with 123 samples.

Results

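The change from the early to the late inner cell mass (ICM) without Oct4 was measured in 16 of the 123 libraries of the series, namely the 8 Oct4 KO early ICMs and the 8 Oct4 KO late ICMs, taken by their labels. Each library was the ICM of a single mouse embryo, the cells inside the blastocyst that give rise to the epiblast and the primitive endoderm. KO embryos lacked Oct4 (gene symbol Pou5f1) from egg and embryo alike: mothers were Pou5f1 flox/flox; Zp3-Cre, in which Cre is active in the oocyte, and fathers were Pou5f1 +/mKO2, whose null allele carries the fluorescent reporter mKO2 under a PGK promoter. The Oct4 Ctrl ICMs, 8 early and 8 late, came from the same matings and kept 1 intact paternal allele, so both groups lacked the maternal gene. All had the strain label B6C3F1, were collected at E2.5 and were cultured in KSOM with 1 μM PD0325901, an inhibitor of MEK, the kinase that activates ERK. They were taken as early blastocysts (E3.75) or late blastocysts (E4.5) and freed of the outer trophectoderm by immunosurgery. Age, time in culture and time in the inhibitor therefore changed together and cannot be told apart. Replicates were separate embryos. The late ICMs carry numbers of the form 1-n or 2-n, 4 of each in KO, and the labels do not say what the first digit stands for.

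Oct4 is a POU-domain transcription factor that, together with Sox2, holds the pluripotent state of the epiblast. Between the early and the late blastocyst the epiblast acquires naive pluripotency, in which Nanog, Klf4, Esrrb and other factors sustain each other. Blocking MEK directs ICM cells to the epiblast and away from the primitive endoderm. The trophectoderm is the epithelium that surrounds the ICM and forms the placenta, and Cdx2, Gata2, Gata3, Tfap2a and Elf5 are among its regulators.

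Transcripts were counted with unique molecular identifiers (UMIs), so that each molecule counted once, and expression is given as CPM, counts scaled to a common library total. Totals were 817029 to 960732 UMIs in the KO early ICMs and 640909 to 859114 in the KO late ICMs. The late total was lower by 119.8 kUMIs (kilo-UMIs) on average (two-sided exact permutation test, n = 8 and 8, p = 0.0042). Pou5f1 had 7 UMIs over the 8 KO early ICMs and 1 UMI over the 8 KO late ICMs, against 550 and 236 in the Ctrl ICMs, so the KO labels fit the counts. Y-linked transcripts reached 10 UMIs in 5 KO early and 2 KO late ICMs, so male embryos were not evenly spread over the stages. Values below come from 1 edgeR quasi-likelihood fit with Benjamini-Hochberg adjustment, and a gene was called at an adjusted p under 0.05 with a log2 fold change of at least 1 in size. Errors of log2 values are standard errors. The summed level of 7 epiblast markers was 954, 1150 and 1580 CPM of total UMIs (lowest, median and highest) in KO early and 350, 636 and 1050.1 CPM in KO late ICMs. Most of that sum was Nanog, and no other of the 7 was called between the KO stages. Markers of oocytes and of red blood cells summed to at most 8.33 and 2.90 CPM in any KO ICM. An ICM is a mixture of cells, and fewer cells of a type cannot be told apart from less RNA per cell.

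KO ICMs changed at about as many genes as Oct4 Ctrl ICMs between the stages. Of 14053 genes tested, 1371 rose (9.76%) and 871 fell (6.2%) from early to late ICM. In Ctrl ICMs 1338 rose (9.52%) and 849 fell (6.04%). These shares of all genes are the background for the counts of each gene list. In the control ICMs of the Sox2 line far fewer genes were called: 272 rose (1.94%) and 135 fell (0.961%). The same direction was called with and without Oct4 for 534 risers and 314 fallers. A test of the difference between the stage changes called 437 genes: the KO change was higher for 291 (2.07%) and lower for 146 (1.04%). The differences were also computed with Sox2 Ctrl, the control ICMs of the Sox2 line, in place of Oct4 Ctrl. They were computed too with the late ICMs numbered 1-n or 2-n alone. This leaves 4 KO late embryos, and for 2-n only the Ctrl late embryos 2-1, 2-4 and 2-9. Of 60 called differences of named or listed genes, 5 were called in every alternative (Nanog, Sox2, Psat1, Slc15a2 and Wwtr1). Of those 291, 119 rose in KO and were not called in Ctrl, 84 fell in Ctrl and were not called in KO, and 9 rose in KO and fell in Ctrl. Of the 146, 67 rose in Ctrl and were not called in KO, 43 fell in KO and were not called in Ctrl, and 2 fell in KO and rose in Ctrl. A further 709 genes rose in KO and were not called in Ctrl, but their difference was not called either. Complete separation of the 8 late from the 8 early KO ICMs was seen for 442 genes that were higher in late ICMs (3.15%) and 380 that were lower (2.7%).

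**Figure D1:**
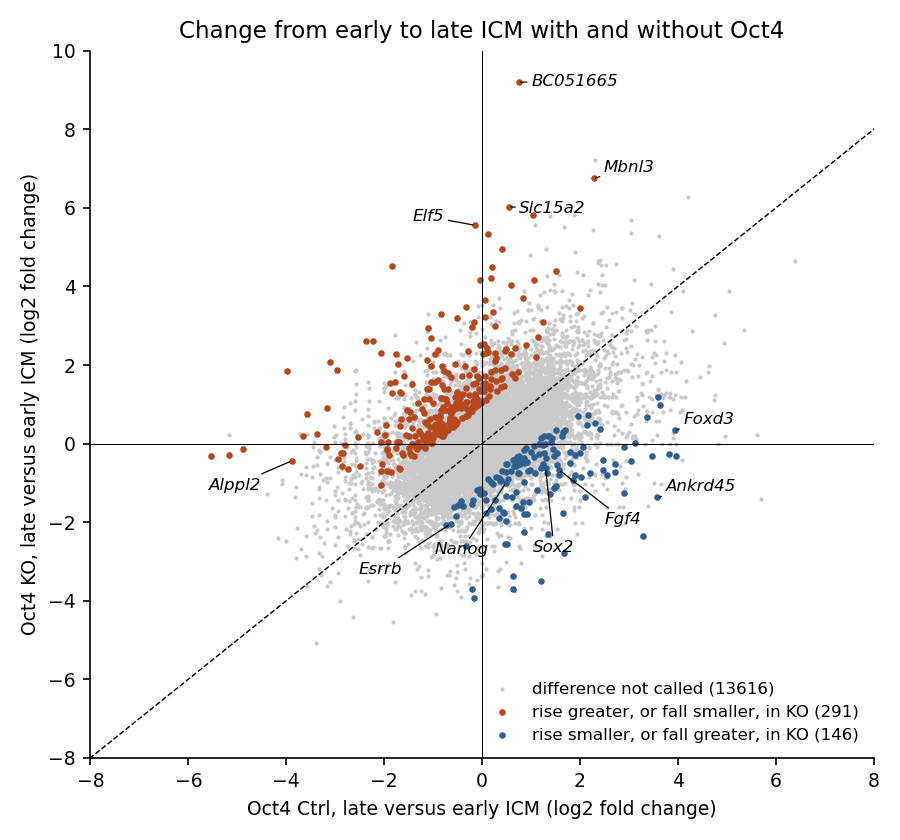
Log2 fold change from early to late ICM of 14053 genes in Oct4 Ctrl (horizontal axis) and Oct4 KO ICMs (vertical axis), with 8 embryos per group. Coloured points are the 291 genes with a higher and the 146 with a lower change in KO, and the dashed line marks equal change. Nanog, Sox2, Fgf4, Foxd3 and Ankrd45 lie below that line, and Elf5, Slc15a2, Mbnl3 and Alppl2 lie above it.

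Naive pluripotency factors fell or were not called in the KO. Of 17 naive pluripotency transcription factors tested (Nr0b1 was too low to test), 3 fell and none rose in KO ICMs, beside 6.2% and 9.76% of all genes, whereas 4 rose and none fell in Ctrl ICMs. The list median was -0.23 in KO and 0.20 in Ctrl on the log2 scale, beside 0.05 and 0.03 for all genes tested. The difference between the stage changes was called lower in KO for 6 members (Sox2, Nanog, Esrrb, Klf4, Klf2 and Foxd3) and higher for Klf5, beside 1.04% and 2.07% of all genes. The count of 6 ran from 4 to 7 when 1 embryo was left out and was 3 with either set of late embryos alone. Nanog, the homeodomain factor that marks the early epiblast (chr6:122707489-122714633 in mm10, plus strand), had 683, 896 and 1072 CPM as lowest, median and highest of the KO early ICMs. The KO late ICMs had 225, 440 and 685 CPM. The groups touched only where the highest late embryo met the lowest early one. Nanog fell by 1.01 ± 0.23 on the log2 scale (adjusted p = 0.0003), a size close to the threshold, and leaving out 1 embryo ended the call for 5 of 16 embryos with values down to -0.95, as did keeping only late embryos numbered 2-n (-0.97). DESeq2 and another scaling (RLE) also ended the call. In Ctrl the Nanog value was 0.48 and not called, and the difference was -1.50 ± 0.33 (adjusted p = 0.0026).

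Klf4 and Esrrb fell further. Klf4, a Krüppel-like factor of the naive network (chr4:55527143-55532466, minus strand), ranged over 161, 260 and 340 CPM in KO early ICMs and over 17.3, 70.5 and 188 CPM in KO late ICMs. Only the embryos numbered 2-5 and 2-7 reached the early range, and the change was -1.54 ± 0.25 (adjusted p = 5.7e-07). Esrrb, an orphan nuclear receptor (chr12:86361117-86521628, plus strand), went from 19.4, 36.2 and 72.5 CPM to 0, 3.94 and 25.9 CPM. Its level had already been lower in KO early ICMs than in any Ctrl early ICM, where the lowest was 129 CPM. The further fall was -2.05 ± 0.32 (adjusted p = 1.3e-07), against -0.64, under the fold required, in Ctrl. The differences from Ctrl were -1.34 ± 0.34 for Klf4 and -1.40 ± 0.39 for Esrrb, with adjusted p of 0.011 and 0.019. That of Esrrb was not called without KO early embryo 14 or KO late embryo 2-6 (-1.19 and -1.21). With one set of late embryos alone the Klf4 difference was not called for 2-n (-1.01), nor that of Esrrb for 1-n (-1.07).

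Sox2, Klf2, Fgf4 and Foxd3 rose in Ctrl and did not pass the test in KO. Sox2, the partner of Oct4 (chr3:34650405-34652461, plus strand), had 95.8, 135 and 286 CPM in KO early ICMs and 10.4, 87.9 and 220 CPM in KO late ICMs, a change of -0.63 ± 0.27 (adjusted p = 0.065). In Ctrl ICMs Sox2 rose by 1.30, and 7 of the 8 late embryos stood above every early one. Its difference of -1.93 ± 0.38 (adjusted p = 0.00063) had the lowest adjusted p of the 16 key genes. Klf2 had a median of 56.2 CPM in early and 80.0 CPM in late KO ICMs, while the Ctrl median went from 185 to 447 CPM, and the difference was -1.17 ± 0.35 (adjusted p = 0.033). This call was lost without KO early embryo 5 or 10 and without KO late embryo 1-8 or 2-2, the smallest difference being -0.95. Fgf4, the epiblast ligand that instructs neighbouring cells towards primitive endoderm, had medians of 24.7 and 15.8 CPM in KO and of 102 and 328 CPM in Ctrl. Its difference of -2.25 ± 0.56 (adjusted p = 0.0081) was not called with late embryos numbered 1-n alone or with counts thinned to equal depth. Foxd3, a forkhead factor of the epiblast, stayed at or under 19.1 CPM in all 16 KO ICMs, and in Ctrl its median went from 6.60 to 213 CPM. Its difference was -3.60 ± 1.07 (adjusted p = 0.033). It ran from -4.66 without Ctrl early embryo 9 to -3.17, and was not called without KO early embryo 2, 5, 10 or 11. With either set of late embryos alone, 1-n or 2-n, neither the Klf2 nor the Foxd3 difference was called, and with Sox2 Ctrl as reference they were -0.37 and -1.13 and not called. Klf5 moved the other way: its KO median went from 898 to 1544 CPM and its Ctrl median from 1175 to 716 CPM. Both changes were under the fold required, and their difference was 1.26 ± 0.23 (adjusted p = 0.00022), or 0.65 and not called with Sox2 Ctrl as reference.

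**Figure D2:**
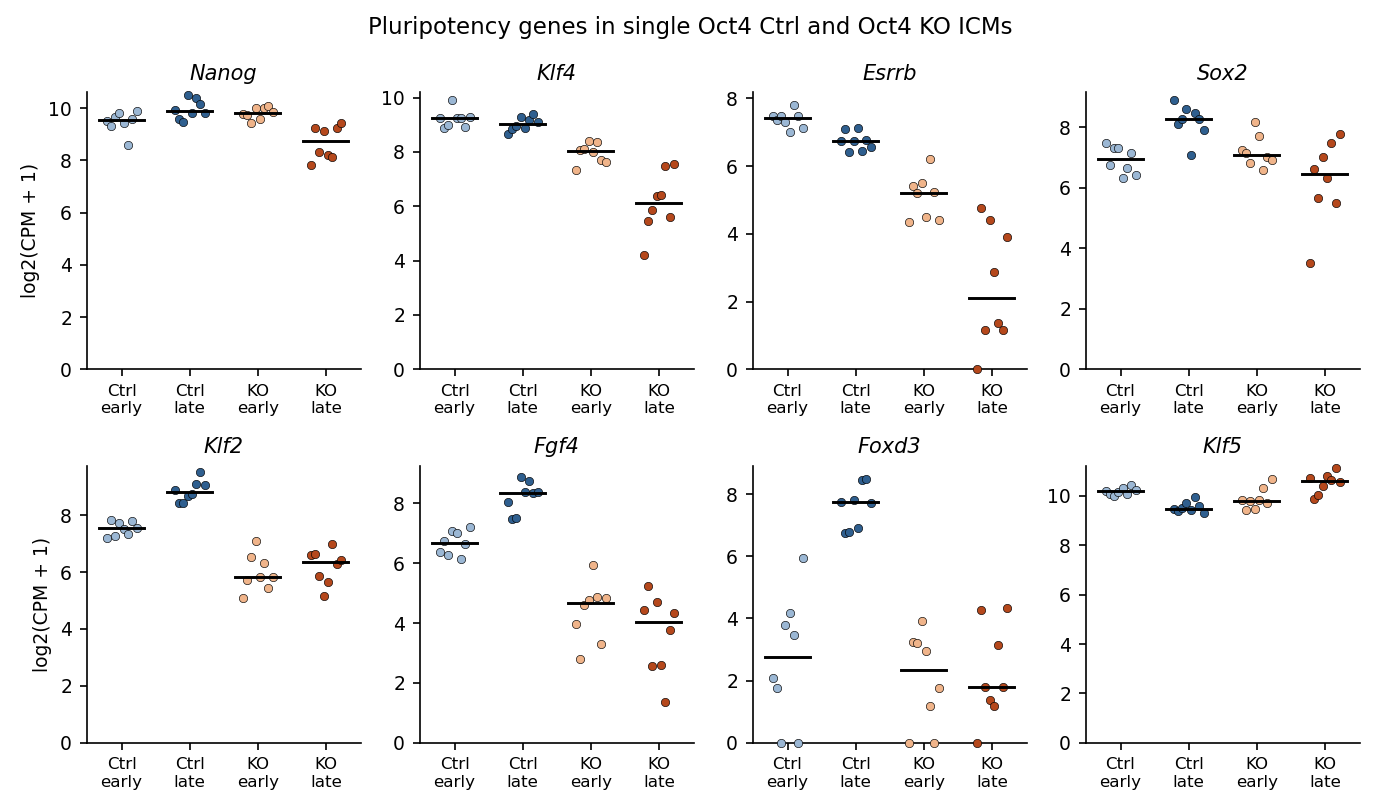
Log2(CPM + 1) of 8 pluripotency genes in single ICMs, with 8 embryos (points) and the median (line) for each of Oct4 Ctrl early, Oct4 Ctrl late, Oct4 KO early and Oct4 KO late. Nanog, Klf4 and Esrrb are lower in late than in early KO ICMs, and Sox2, Klf2, Fgf4 and Foxd3 are raised in late Ctrl ICMs.

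Among 18 epiblast signals and markers, 1 rose and 3 fell in KO, against 6 and 1 in Ctrl, and the difference was called higher in KO for 1 and lower for 3. For all genes the shares were 9.76% and 6.2% in KO and 2.07% and 1.04% for the difference. Without KO early embryo 17 or KO late embryo 1-7 only 1 fell. Fbxo15, an F-box gene used as an Oct4 target reporter, fell from 1004, 1051 and 1402 CPM to 192, 369 and 769 CPM with no overlap (-1.43 ± 0.20), and it fell in Ctrl too, by 1.18. Dppa2, a chromatin-binding factor of pluripotent cells, fell by 1.01 ± 0.17, again without overlap, and its Ctrl value was -0.73. Leaving out 1 embryo took Dppa2 under the fold required for 6 of 16 embryos, down to -0.90, and late embryos numbered 2-n alone gave -0.95. Nor was Dppa2 called with DESeq2 or with another scaling (RLE). The Nodal co-receptor gene Tdgf1 fell by 1.36 ± 0.50 from a KO early median of only 14.8 CPM, where Ctrl early ICMs had 303 CPM, a call lost without KO early embryo 14 or 17 or KO late embryo 1-7 and with either set of late embryos alone. Spp1, the secreted glycoprotein osteopontin, was the riser, at 2.13 ± 0.65 in KO and 2.31 in Ctrl, and was not called with late embryos numbered 1-n alone (1.95). Utf1 and Tdh, chosen after their values were seen, rose in Ctrl by 1.28 and 1.51 and were not called in KO at -0.00 ± 0.28 and -1.07 ± 0.51. Utf1 is a chromatin protein of pluripotent cells and Tdh is threonine dehydrogenase, and their differences were -1.28 ± 0.35 and -2.59 ± 0.58. The Tdh difference was -3.25 without KO late embryo 1-8 and was not called with counts thinned to equal depth. The Utf1 call was lost without KO early embryo 14 (-1.08, adjusted p = 0.064) and with either set of late embryos alone. With Sox2 Ctrl as reference the Utf1 value changed sign, to 0.41. Pecam1, the adhesion molecule CD31, chosen after its values were seen, was the member with the higher change in KO (1.99 ± 0.63, adjusted p = 0.048), a call lost in 11 of 17 fits that left out 1 embryo, with either set of late embryos alone and with Sox2 Ctrl as reference.

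Of 8 formative and later epiblast genes that could be tested, none rose and Otx2 fell in KO, while 4 rose and 1 fell in Ctrl. Otx2, a homeobox gene of the epiblast on its way out of naive pluripotency, had 0, 16.4 and 58.7 CPM in KO early and 0, 1.38 and 4.71 CPM in KO late ICMs. Otx2 fell by 3.51 ± 0.72 (adjusted p = 4.8e-05) and the difference from the fall of 1.77 in Ctrl was not called. No member of this list had a called difference.

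Of 12 genes of LIF and STAT3 signalling, the cytokine route that supports naive pluripotency, 5 rose and 1 fell in KO, beside 9.76% and 6.2% of all genes. In Ctrl 5 rose and none fell, and no difference was called. The 5 risers were 3 without KO early embryo 1, 17 or 18, without KO late embryo 2-2, or with late embryos numbered 1-n alone. The ligand gene Lif went from 2.39, 3.67 and 7.86 CPM to 3.74, 13.9 and 62.3 CPM and rose by 2.33 ± 0.43. Junb, an immediate early gene, rose by 2.96 ± 0.45 in KO and by 2.52 in Ctrl. The receptor gene Il6st had 1 UMI over the KO early and 14 UMIs over the KO late ICMs, a ratio of 16.2 with a counting interval of 2.47 to 686. Its fitted value of 3.19 was not called without KO late embryo 2-2 and turned to -1.05 with late embryos numbered 1-n alone. Bcl3 (1.64), a nuclear partner of NF-kappaB that was chosen after its values were seen, and Socs3 (1.78), a feedback inhibitor of the pathway, were lost in 10 and 4 of 16 fits that left out 1 embryo. The STAT3-responsive kinase gene Pim1, chosen after its values were seen, was the member that fell (-1.75 ± 0.26).

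Some genes of the trophectoderm, the layer that immunosurgery takes away, rose in KO ICMs, and more members of both lists were not called. Of 16 trophectoderm transcription factors, 5 rose, 1 fell and 10 were not called in KO, against 3 and 1 in Ctrl, and the list median was 0.93 in KO and -0.15 in Ctrl. Of 24 genes of the trophectoderm epithelium, 10 rose, none fell and 14 were not called in KO, against 4 and 1 in Ctrl. The difference was called higher in KO for 3 of the transcription factors and 2 of the epithelial genes. For all genes the shares were 9.76% higher and 6.2% lower in KO and 2.07% higher for the difference. The 3 transcription factors were 1 without Ctrl early embryo 9 or KO early embryo 1, 14 or 17, and neither list had a called difference with late embryos numbered 2-n alone. The summed level of the 8 trophectoderm markers was 714, 1053 and 1362 CPM of total UMIs in KO early ICMs and 1333, 2617 and 2862 CPM in KO late ICMs, so all but the lowest late embryo were above every early one. In Ctrl the sum had medians of 429 and 548 CPM. All 8 markers had UMIs in both KO groups. In KO late ICMs Krt8 and Krt18 made up most of the sum. Of the other markers Cdx2, Krt7 and Elf5 rose, Gata3 and Eomes were not called, and Hand1 fell. Whether outer cells that escaped immunosurgery contribute to these values was not tested.

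Cdx2, the homeodomain factor that specifies trophectoderm (chr5:147300805-147307270 in mm10, minus strand), had 5.81, 15.9 and 27.6 CPM in KO early and 17.7, 32.7 and 88.2 CPM in KO late ICMs. It rose by 1.28 ± 0.36 (adjusted p = 0.0027) while the Ctrl value was -0.51 and not called. The size rests in part on KO late embryo 1-2 at 88.2 CPM: without it the change was 0.97, and with late embryos numbered 2-n alone 0.71, both under the fold required. The difference from Ctrl was 1.80 ± 0.55 (adjusted p = 0.040) and was lost in 8 of 17 fits that left out 1 embryo: KO early embryo 1, 10, 14 or 17, KO late embryo 1-2, 1-5 or 1-7, or Ctrl early embryo 9 (1.43, adjusted p = 0.13, the smallest). With Sox2 Ctrl as reference it was 0.21, with late embryos numbered 2-n alone 1.23, and in neither case called. Gata2 went from 0, 0 and 8.37 CPM to 7.39, 32.5 and 130 CPM and rose by 4.58 ± 0.73, or 5.39 without KO early embryo 18. Gata2 also rose in Ctrl, by 2.73, and the difference was not called. Tfap2a, the gene of AP-2 alpha, separated fully, from 0, 7.51 and 29.9 CPM to 59.7, 124 and 386 CPM (3.89 ± 0.53, adjusted p = 2.7e-09). Id2, a helix-loop-helix inhibitor that is prominent in the outer cells of the embryo, also separated fully, with medians of 48.2 and 976 CPM and a rise of 3.25 ± 0.53. Gata3 and Eomes, at medians of 342 and 66.1 CPM in KO early ICMs and 428 and 80.6 CPM in KO late ICMs, were not called (0.44 ± 0.31 and 0.46 ± 0.30). Hand1, a factor of trophoblast giant cells that was chosen after its values were seen, was the member that fell, by 1.58 in KO and 2.53 in Ctrl.

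Elf5, a factor of the trophoblast stem cell state, had 2 UMIs over the KO early ICMs and 109 UMIs over the KO late ICMs, a ratio of 63.2 with a counting interval of 17.1 to 528. The signal was uneven: embryos 1-2 and 2-2 had 69.2 and 68.2 CPM, the other late embryos lay between 0 and 8.74 CPM, and the early ones reached 1.94 CPM at most. The fitted change of 5.56 ± 1.00 ran from 4.84 without late embryo 2-2 to 7.12 without early embryo 1. The fitted difference from Ctrl, 5.70 ± 1.34 (adjusted p = 0.0051), was not called without Ctrl early embryo 9 (3.16, adjusted p = 0.33), which alone had 28 of the 32 Elf5 UMIs of its group. Nor was it called with Sox2 Ctrl as reference (2.28) or with late embryos numbered 2-n alone (5.01).

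The keratin genes Krt8, Krt18, Krt7 and Krt19 and the desmosomal gene Dsc2 rose in KO. Krt8, the type II keratin of simple epithelia, had 98.2, 200 and 466 CPM in KO early and 349, 972 and 1278 CPM in KO late ICMs, and rose by 2.05 ± 0.44 (adjusted p = 0.0001). Its partner Krt18 had 55.2, 108 and 364 CPM and then 310, 1104 and 1144 CPM, and rose by 2.45 ± 0.53 (adjusted p = 0.00011). For Krt8 and Krt18 7 of 8 late embryos were above every early embryo, and embryo 2-7 was the exception. In Ctrl their values were 0.51 and 0.44 and not called, but the differences of 1.53 ± 0.61 and 2.01 ± 0.74 did not pass the test either (adjusted p = 0.15 and 0.11). Krt7 and Krt19, at means of 2.94 and 0.98 CPM in KO early and 17.4 and 13.6 CPM in KO late ICMs, rose by 2.54 ± 0.67 and 3.58 ± 0.75. Dsc2, a desmosomal cadherin, separated fully (2.53 ± 0.48). F11r, the junctional adhesion molecule JAM-A, was not called in KO (0.34 ± 0.13) and had a value of -0.85 in Ctrl, a called difference of 1.19 ± 0.19 (adjusted p = 2.3e-05). It was 0.10 with Sox2 Ctrl as reference and 0.80 with late embryos numbered 2-n alone, and not called in either case.

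**Figure D3:**
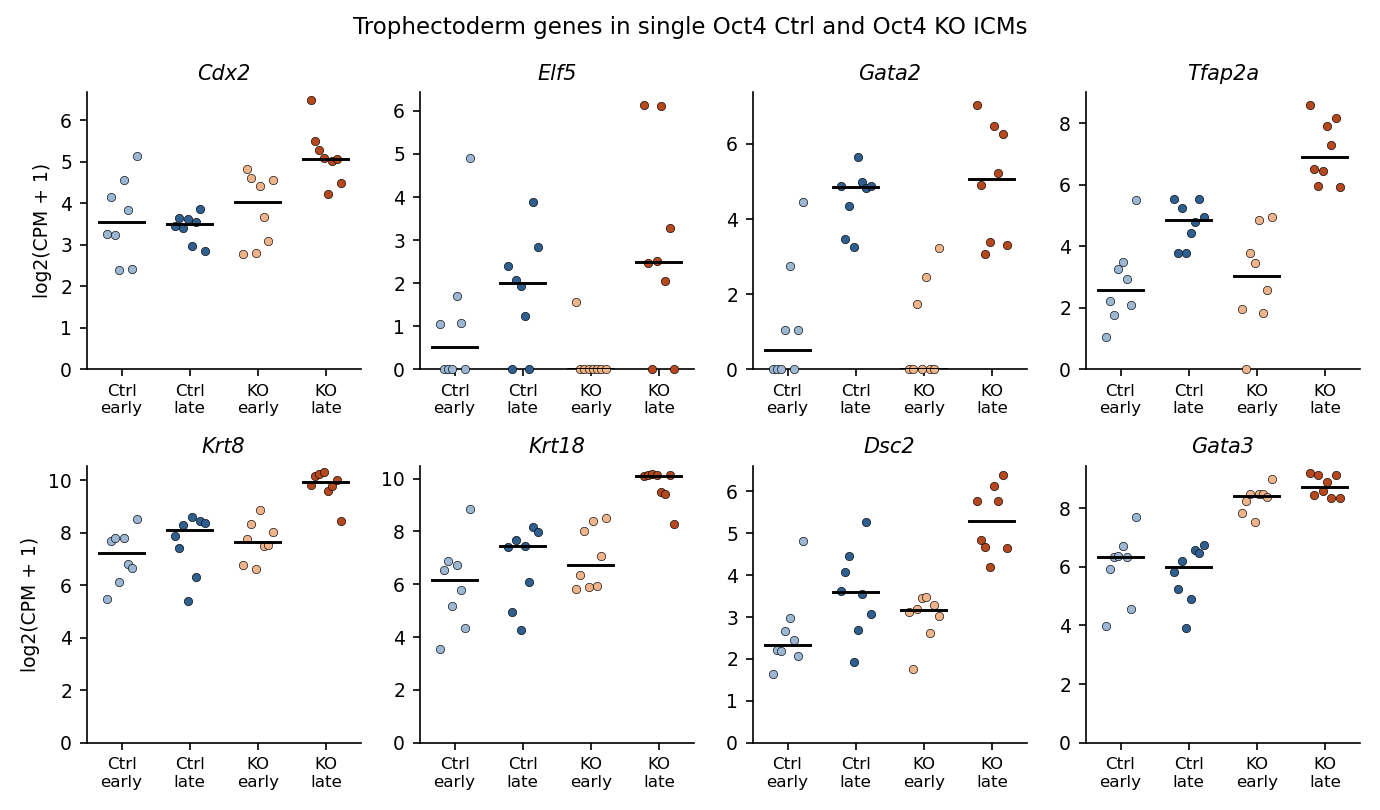
Log2(CPM + 1) of 8 trophectoderm genes in single ICMs, with 8 embryos (points) and the median (line) for each of Oct4 Ctrl early, Oct4 Ctrl late, Oct4 KO early and Oct4 KO late. Gata2, Tfap2a, Krt8, Krt18 and Dsc2 stand higher in KO late than in KO early ICMs, Elf5 is high in 2 KO late embryos, and the KO groups of Gata3 overlap.

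Of 10 later trophoblast genes tested, 2 rose and none fell in KO, beside 9.76% and 6.2% of all genes, against 0 and 1 in Ctrl. The difference was called higher for 2, beside 2.07% of all genes. Plac1, an X-linked gene needed in the placenta, rose from 3.59, 6.04 and 12.3 CPM to 17.8, 31.4 and 109 CPM without overlap (2.5 ± 0.43), and by 2.61 in a fit with a term for Y-linked counts. Its Ctrl value was -0.04, a difference of 2.54 ± 0.59 (adjusted p = 0.0044). Alppl2, an alkaline phosphatase, showed the reverse case: it was not called in KO (-0.44 ± 0.41, medians 782 and 526 CPM) and fell in Ctrl by 3.89, from 178 to 14.9 CPM, a difference of 3.45 ± 0.70 (adjusted p = 0.00099). Neither difference was called with Sox2 Ctrl as reference (0.41 for Plac1 and 1.54 for Alppl2) or with late embryos numbered 2-n alone (1.82 and 3.04). Ndrg1, a gene induced by differentiation and low oxygen, rose by 2.43 ± 0.50.

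Of 22 primitive endoderm genes tested, 4 rose and 1 fell in KO, beside 9.76% and 6.2% of all genes, against 9 and 2 in Ctrl. Without KO late embryo 2-2 or 2-5 only Apoe of the 4 was called (Lamc1, Lama1 and Apoa1 were not), with late embryos numbered 1-n alone 2 rose, and the faller Lamb1, chosen after its values were seen, was lost in 5 of 16 fits that left out 1 embryo. The summed level of the 8 primitive endoderm markers had medians of 429 and 457 CPM of total UMIs in early and late KO ICMs, with Foxa2 and Sox7 at 0 in all KO early ICMs. Most of that sum was Gata6, the first factor of the lineage, whose KO median was 410 CPM in early and 439 CPM in late ICMs (0.04 ± 0.25). In Ctrl Gata6 fell by 1.32, and the difference was 1.36 ± 0.35 (adjusted p = 0.012). It was not called with Sox2 Ctrl as reference (0.60) or with late embryos numbered 1-n (1.22) or 2-n (1.58) alone. The later factors Gata4 and Sox17 were near the counting limit in KO, with Sox17 at 1 UMI over the early and 4 UMIs over the late ICMs, and neither was called. The basement membrane gene Lamc1 rose by 1.12 ± 0.32 in KO, from a median of 43.3 to 100 CPM, and by 1.93 in Ctrl. Its KO call was lost in 2 of the fits that left out 1 embryo, the lower value being 0.93 without late embryo 2-2, and with late embryos numbered 1-n alone (0.66). Apoe, a lipid carrier, rose by 1.65 ± 0.29, with a difference from Ctrl of 1.26 ± 0.39 (adjusted p = 0.044) that was lost in 10 of 17 fits that left out 1 embryo, with a term for Y-linked counts (1.15) and with late embryos numbered 2-n alone (0.82). The receptor gene Fgfr2, at medians of 109 and 153 CPM, was not called (0.35 ± 0.23).

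Of 14 MAPK targets, 4 rose and 1 fell in KO, beside 9.76% and 6.2% of all genes, against 4 and 0 in Ctrl. The immediate early genes Egr1 and Fos rose without overlap in KO, by 3.19 ± 0.44 and 2.89 ± 0.39, and by 2.86 and 2.97 in Ctrl. Egr1 went from 1.25, 6.79 and 19 CPM to 25.1, 77.8 and 135 CPM. Dusp6, the phosphatase that dampens ERK, rose from a median of 8.72 to 84.4 CPM (2.17 ± 0.40) and was not called in Ctrl (0.28), a difference of 1.90 ± 0.58 (adjusted p = 0.040) that was lost in 8 of 17 fits that left out 1 embryo and with either set of late embryos alone. Etv5, an ETS factor chosen after its values were seen, went the other way: it rose by 1.21 in Ctrl, had -0.63 ± 0.36 in KO, and differed by -1.83 ± 0.43 (adjusted p = 0.0042). That call was lost with late embryos numbered 1-n alone (-1.69) and with counts thinned to equal depth. Spry2, an antagonist of receptor tyrosine kinases, had medians of 121 and 115 CPM and was not called.

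In the Hippo pathway, which keeps YAP out of the nucleus of inner cells, 4 of 13 genes rose and none fell in KO, beside 9.76% and 6.2% of all genes. In Ctrl none rose and 2 fell, and in KO 2 rose with late embryos numbered 1-n alone. Tead2, a DNA-binding partner of YAP, rose from 23.3, 39.0 and 73.0 CPM to 70.7, 115 and 166 CPM (1.42 ± 0.31). Its relative Tead3 rose by 3.86 ± 0.66 from a median under 1 CPM, and by 3.25 without KO late embryo 1-2. The YAP target Ccn1 rose by 1.54 ± 0.40 and the angiomotin-like gene Amotl2 by 1.41 ± 0.32. With the late embryos numbered 1-n alone Ccn1 and Amotl2 were 0.28 and 0.92 and not called, and with those numbered 2-n alone they were 2.15 and 1.73 and called. The summed level of the list was 776 to 1249.5 CPM in KO early ICMs, 859, 865, 1036.5 and 1484 CPM in the late embryos numbered 1-n, and 1445 to 1625 CPM in those numbered 2-n, so 3 of the 1-n embryos lay within the early range and all 4 of the 2-n embryos above it. Yap1 itself was below its early median in all 8 late embryos, but its value was under the fold required (-0.81 ± 0.12). Its paralog Wwtr1 was not called in KO (0.49 ± 0.19) and fell in Ctrl by 1.13, a difference of 1.63 ± 0.27 (adjusted p = 6.2e-05).

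A list of 14 genes held Trp53, the gene of the damage-responsive tumour suppressor p53, and targets of p53. Of these 6 had a higher stage change in KO than in Ctrl and none a lower one, beside 2.07% and 1.04% of all genes. In KO 3 rose and 1 fell, against 0 and 3 in Ctrl, and the list medians were 0.16 and -0.65. Phlda3, an inhibitor of AKT, went from 0, 21.1 and 67.0 CPM to 45.0, 117 and 261 CPM and rose by 2.44 ± 0.40 (adjusted p = 5.2e-07). The antiproliferative gene Btg2 went from 12.9, 28.7 and 60 CPM to 28.7, 82.3 and 193 CPM and rose by 1.57 ± 0.35. Zmat3, an RNA-binding zinc finger gene, rose by 1.39 ± 0.35 from a median of 10.8 to 26.9 CPM. Their differences from Ctrl were 1.76 ± 0.55, 2.54 ± 0.53 and 2.17 ± 0.52, with adjusted p of 0.046, 0.0015 and 0.0052. The Phlda3 difference was lost in 10 of 17 fits that left out 1 embryo, that of Aen in 4 (KO early embryo 10 or 11, KO late embryo 1-5 or 1-8, down to 0.92), that of Ccng1 without KO late embryo 1-7 (1.36, adjusted p = 0.055), and those of Btg2 and Zmat3 in none. Ccng1, cyclin G1, had 0.85 ± 0.30 in KO and a difference of 1.53 ± 0.43. Perp and Aen, chosen after their values were seen, completed the 6, with differences of 1.94 ± 0.46 and 1.05 ± 0.28. With late embryos numbered 2-n alone only Btg2 of the 6 was called, and with 1-n alone Phlda3 and Ccng1 were not. With Sox2 Ctrl as reference Btg2 (1.17) and Perp (0.54) were not called and Aen changed sign, to -0.16. Trp53, the gene of p53 itself, was the member that fell, from 19.1, 28.9 and 55.0 CPM to 1.57, 13 and 22.7 CPM (-1.27 ± 0.34), and was not called with late embryos numbered 2-n alone (-0.81). The cell cycle inhibitor gene Cdkn1a was not called in KO, with medians of 308 and 244 CPM. Of 13 BCL2 family and caspase genes, 2 rose in KO, beside 9.76% of all genes, or 1 without KO early embryo 11 or KO late embryo 1-5. No difference was called among them.

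In the integrated stress response, the program through which ATF4 raises amino acid synthesis and transport, 9 of 16 genes rose and 1 fell in Ctrl, with a list median of 1.20. In KO 1 rose and none fell, beside 9.76% and 6.2% of all genes, with a median of 0.07. The riser was Gdf15, a secreted stress factor with 0 UMIs over the KO early and 11 over the KO late ICMs, at least 4.25-fold higher against a floor of 3 UMIs over the group. The difference was called lower in KO for 4 (Psat1, Asns, Mthfd2 and Cebpb), or 2 without KO early embryo 10, and higher for Phgdh. Psat1, an enzyme of serine synthesis, had 239, 389 and 479 CPM in KO early and 65.7, 162 and 458 CPM in KO late ICMs, a value of -0.91 ± 0.19 against 0.53 in Ctrl, and a difference of -1.45 ± 0.26 (adjusted p = 0.00024). Asns, asparagine synthetase, had medians of 56.7 and 37.8 CPM in KO and of 90.7 and 437 CPM in Ctrl. Its difference was -2.23 ± 0.59 (adjusted p = 0.014). The mitochondrial folate enzyme gene Mthfd2 and the bZIP factor gene Cebpb had differences of -1.67 ± 0.47 and -1.69 ± 0.52. The Mthfd2 call was lost without KO early embryo 10 (-1.45), the Cebpb call in 5 of 17 fits that left out 1 embryo (KO early 10, 11, 17 or 18, or KO late 2-5, -1.54 at the smallest), and that of Phgdh without KO late embryo 1-8 (1.12, adjusted p = 0.061). Asns, Mthfd2 and Cebpb were not called with either set of late embryos alone, nor Phgdh with 2-n, so of these 5 Psat1 alone was called with both. With Sox2 Ctrl as reference Cebpb (-1.13) and Phgdh (0.33) were not called. Asns, Mthfd2, Cebpb and Phgdh were chosen after their values were seen. Atf4, at medians of 238 and 284 CPM in KO, was under the fold required at both genotypes (0.42 ± 0.14 and 0.28).

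**Figure D4:**
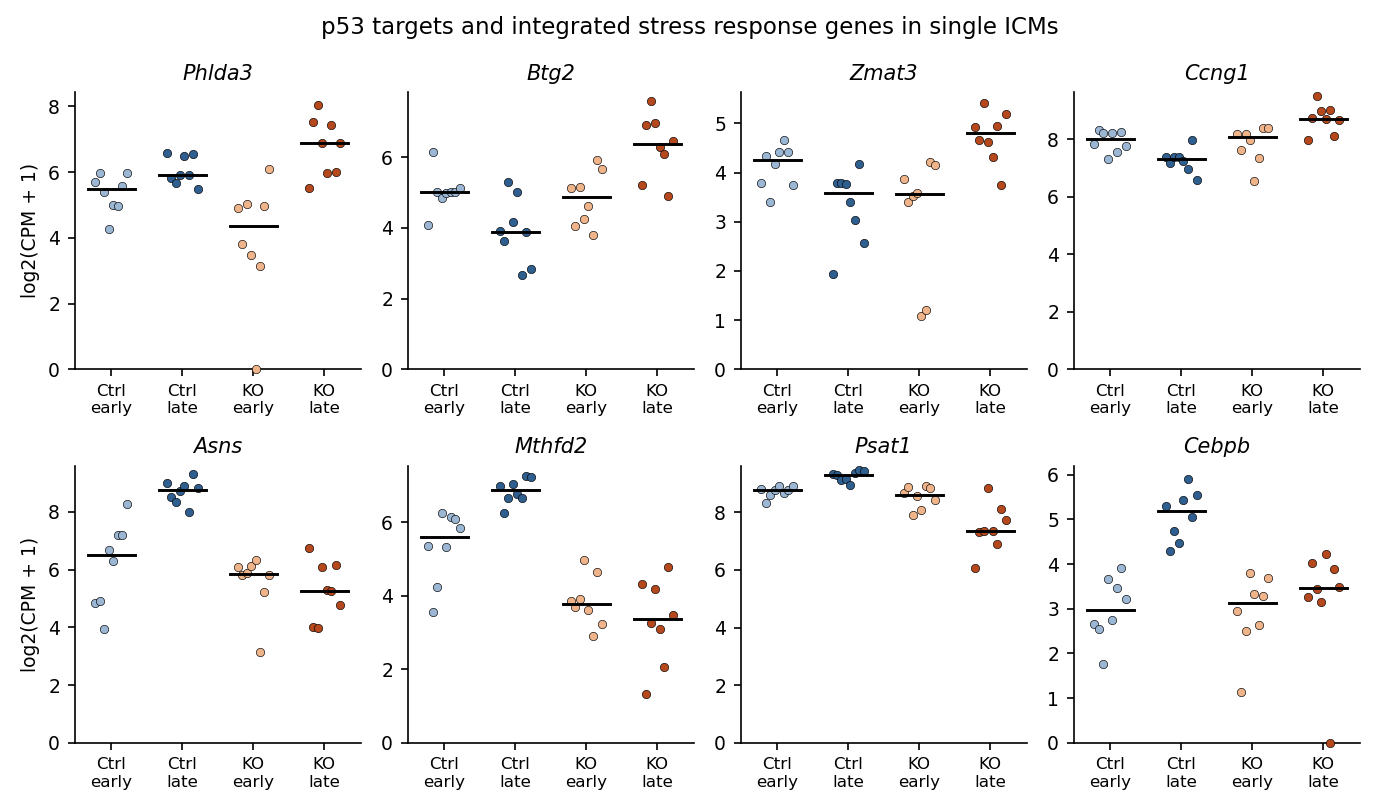
Log2(CPM + 1) of 4 p53 targets (upper row) and 4 integrated stress response genes (lower row) in single ICMs, with 8 embryos (points) and the median (line) for each of Oct4 Ctrl early, Oct4 Ctrl late, Oct4 KO early and Oct4 KO late. Phlda3, Btg2 and Zmat3 are higher in late than in early KO ICMs, and Asns, Mthfd2 and Cebpb are raised in late Ctrl ICMs and low in both KO groups.

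Of 18 glycolysis genes, 4 rose and none fell in KO, beside 9.76% and 6.2% of all genes, against 3 and 1 in Ctrl. In KO 2 rose with late embryos numbered 1-n alone. The triosephosphate isomerase gene Tpi1 went from 7.51, 22.2 and 57.3 CPM to 33, 88.3 and 242 CPM (2.10 ± 0.34) and was not called in Ctrl (0.25), a difference of 1.85 ± 0.47 (adjusted p = 0.011) that was not called with late embryos numbered 2-n alone (1.64). Gapdh rose by 1.66 ± 0.32 in KO and by 1.59 in Ctrl. Slc2a1, a glucose transporter, rose by 1.31 ± 0.29, whereas the transporter Slc2a3, with medians of 1174 and 1229.9 CPM, was not called. Pgk1, which is X-linked, rose by 1.31 ± 0.23, and by 1.42 with a term for Y-linked counts. With late embryos numbered 1-n alone Slc2a1 and Pgk1 were 0.96 and 0.93, under the fold required. Of 23 cholesterol synthesis genes, 5 rose in KO, beside 9.76% of all genes, and 6 rose and 1 fell in Ctrl. The KO count of 5 ran from 4 to 8 when 1 embryo was left out. Srebf2, the transcription factor of that pathway, rose by 3.19 ± 0.55 from a median of 2.40 to 10.7 CPM. Of 17 lysosome genes, 2 rose in KO and 3 fell in Ctrl, and the KO count is near the 9.76% of all genes that rose. Atp6v0d1, a subunit of the proton pump, separated fully in KO, with medians of 83.3 and 210 CPM (1.28 ± 0.15).

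Of 87 cytosolic ribosomal protein genes, 9 rose and 1 fell in KO, against 12 and 1 in Ctrl, so the KO share that rose was near the 9.76% of all genes and the share that fell was under their 6.2%. Of 77 nuclear genes of the respiratory chain 15 rose and 2 fell, against 12 and 2. No difference was called in either list. The KO counts depended on the late embryos: 11 ribosomal and 19 respiratory chain genes rose with those numbered 1-n alone, and 4 and 10 with 2-n alone. The ribosomal count was 5 without KO early embryo 1 or KO late embryo 1-2, 1-5 or 2-5. In summed level of the ribosomal genes all 1-n late embryos of KO and Ctrl were above every early embryo of their genotype, and of the 2-n embryos only KO 2-5 and Ctrl 2-9 were. Cox8a, a subunit of cytochrome c oxidase, had 431, 600 and 757 CPM in KO early and 1704, 2008 and 2861 CPM in KO late ICMs, rising by 1.88 ± 0.14 beside 1.74 in Ctrl. The ribosomal gene Rps2 rose by 1.16 ± 0.09 and 1.11. Of 13 mitochondrially encoded genes, none rose and 1 fell in KO, against 2 and 0 in Ctrl, and the difference was called lower in KO for 2. When 1 embryo was left out, 1 to 3 fell in KO and 2 to 5 had a lower difference. The faller was mt-Nd4l, whose gene overlaps mt-Nd4 and which had means of only 4.75 and 0.65 CPM (-2.54 ± 0.64), not called with late embryos numbered 1-n alone (-1.63). The abundant transcript mt-Nd4, with medians of 8357 and 10020.0 CPM in KO, had 0.22 ± 0.10 in KO and 0.88 in Ctrl.

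Of 23 DNA replication genes, only Gins2 rose in KO (1.06 ± 0.22), a call lost in 9 of 16 fits that left out 1 embryo with a lowest value of 0.95, and none fell. Of 18 mitosis genes, 5 fell and none rose in KO, beside 6.2% and 9.76% of all genes, against 2 and 0 in Ctrl. Of these genes 2 fell in KO with late embryos numbered 1-n alone and 8 with 2-n alone. Their summed level was 2212 to 3560 CPM in KO early ICMs, 2145, 2803, 3293 and 3570 CPM in the late embryos numbered 1-n and 1259.9, 1513, 1654 and 2441 CPM in those numbered 2-n. Cenpe, a kinetochore motor, fell from 121, 165 and 232 CPM to 43.2, 58.2 and 87.4 CPM without overlap (-1.43 ± 0.23), and Kif20a, a kinesin of cytokinesis, from 258, 343 and 428 CPM to 82.0, 137 and 232 CPM (-1.35 ± 0.17). Both also fell in Ctrl, by 1.28 and 1.10. Cenpf fell by 1.19 ± 0.24 and had -0.10 in Ctrl, a difference of -1.09 ± 0.34 (adjusted p = 0.042) that was lost in 8 of 17 fits that left out 1 embryo. Mki67, the proliferation antigen Ki-67, fell by 1.11 ± 0.27. The fifth, the kinesin gene Kif11, chosen after its values were seen, had -1.01 and was not called in 6 of 16 fits that left out 1 embryo. With late embryos numbered 1-n alone Cenpf, Mki67 and Kif11 were -0.76, -0.87 and -0.87, and with a term for Y-linked counts, which differ between the KO stages, they were -0.99, -0.96 and -0.93, under the fold required in each case. The Cenpf difference was -0.85 with that term and not called, nor was it with either set of late embryos alone. Ccnb1 and Ube2c were not called, with values of -0.26 ± 0.18 and -0.18 ± 0.25.

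DNA methylation enzymes rose for 4 of 9 genes in KO and 2 of 9 in Ctrl, beside 9.76% and 9.52% of all genes. Dnmt3b and Dnmt3l, the de novo methyltransferase and its cofactor, rose by 1.42 ± 0.29 and 1.64 ± 0.33 in KO and by 1.46 and 1.54 in Ctrl. Uhrf1, which guides maintenance methylation, rose in KO from 2.25, 7.95 and 15.2 CPM to 12.5, 22.8 and 58.8 CPM (1.65 ± 0.37), still below the lowest Ctrl early value of 41.0 CPM for all but the highest embryo. Tdg, the glycosylase that removes oxidised methylcytosine, separated fully and rose by 2.29 ± 0.48. The Uhrf1 and Tdg differences from Ctrl, 1.46 ± 0.45 and 2.02 ± 0.64, were lost in 10 and 11 of 17 fits that left out 1 embryo, both also with either set of late embryos alone, and that of Uhrf1 with a term for Y-linked counts (1.37). Tet1, with medians of 87.4 and 42.1 CPM and no overlap, had a value just under the fold required (SE 0.18).

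**Figure D5:**
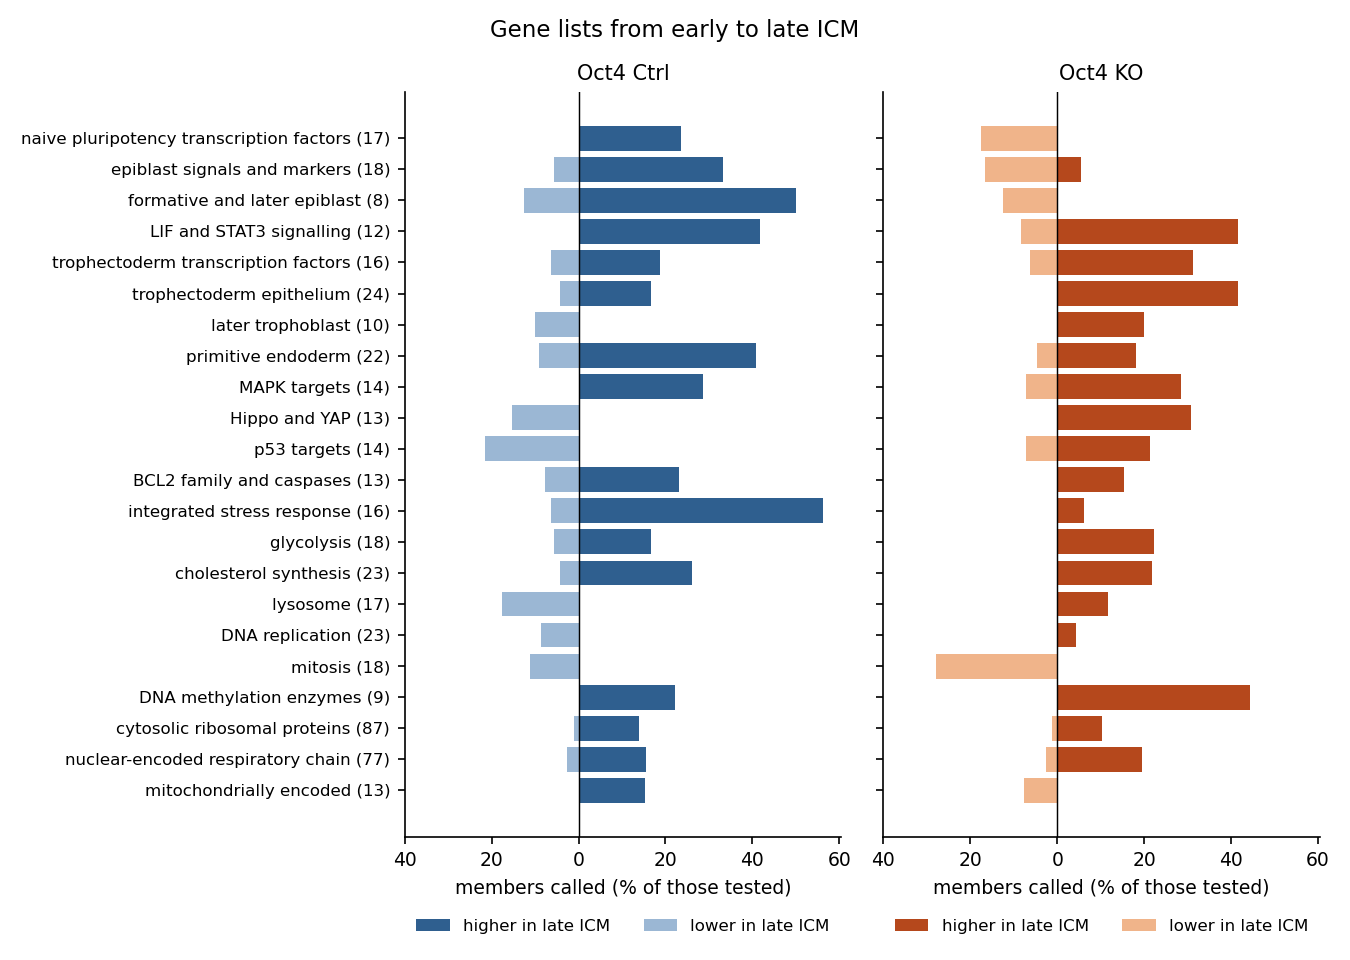
Share of the tested members of each of 22 gene lists (number in brackets) called higher (right) or lower (left) in late than in early ICMs, in percent, for Oct4 KO and Oct4 Ctrl. For all genes the shares were 9.76% higher and 6.2% lower in KO. In KO 10 of 24 trophectoderm epithelium genes rose and 5 of 18 mitosis genes fell, and in Ctrl 9 of 16 integrated stress response genes rose.

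The largest rises without overlap between the stages, where the late mean reached 20 CPM, included those of Mbnl3 and Slc15a2. Mbnl3, an X-linked splicing regulator that is strong in placenta, had 1 UMI over the KO early and 174 UMIs over the KO late ICMs, a ratio of 202 with a counting interval of 35.7 to 8015. Slc15a2, a peptide transporter of epithelial membranes, went from 0, 0 and 4.49 CPM to 7.62, 74.5 and 276 CPM (6.03 ± 0.90, adjusted p = 5.2e-08). Others were Pcbp4 (4.60 ± 0.69), an RNA-binding protein gene, Cib2 (4.39 ± 0.60), which binds calcium, and Tspan8 (4.16 ± 0.63), a tetraspanin. Epn3 (4.04 ± 0.52), an endocytic adaptor of epithelia, Tfap2a, Fthl17a (3.86 ± 0.49), an X-linked ferritin-like gene, and the alcohol dehydrogenase gene Adh1 (3.71 ± 0.66) were also among the 10 largest. With a term for Y-linked counts Mbnl3 and Fthl17a had fitted values of 7.04 and 4.04. Single early embryos with a few UMIs set the size of several: without KO early embryo 18 the fitted value was 4.53 for Adh1, 5.09 for Cib2 and 5.68 for Pcbp4, and without early embryo 1 it was 7.74 for Mbnl3. All of these remained called.

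The largest falls without overlap were Tbx20, Ubash3a, Rpgrip1, Malat1, Zfp1, Taf1d, Trpv2, Nlrc3, Ncl and Olfr52, at -3.06 to -1.98. Of these 10 only Zfp1 and Trpv2 did not also fall in Ctrl, and only for Zfp1, a zinc finger gene, was the difference called (-1.33 ± 0.39, adjusted p = 0.029, lost in 3 of 17 fits that left out 1 embryo and with either set of late embryos alone). The T-box gene Tbx20 went from 9.57, 19.5 and 67.3 CPM to 0, 3.09 and 6.31 CPM (-3.06 ± 0.47). Malat1, a nuclear long noncoding RNA, went from 326, 421 and 644 CPM to 62.5, 91.1 and 131 CPM (-2.17 ± 0.24). Ncl, the gene of the nucleolar protein nucleolin, went from 479, 649 and 767 CPM to 106, 159 and 192 CPM (-2.02 ± 0.13), and fell by 2.54 in Ctrl.

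Among called genes with a group mean of at least 20 CPM, outside the gene classes passed over, those whose stage change differed most from Ctrl were of 2 kinds. Ankrd45, Fbln5, Foxd3, Rbmxl2, Syt9 and Mitf rose in Ctrl by 2.56 to 3.95 and were not called in KO, with differences from -4.95 to -3.23. Mitf, a bHLH-zip transcription factor, illustrates them, with medians of 1.25 and 1.42 CPM in KO and of 1.71 and 20.7 CPM in Ctrl. Fbln5, an extracellular matrix protein gene, had medians of 1.12 and 0 CPM in KO and of 1.12 and 18.1 CPM in Ctrl (-4.28 ± 1.08). Without a single embryo the Ankrd45 difference was -4.25 (KO early 11, adjusted p = 0.055) and the Fbln5 difference -5.13 (KO late 2-6), and that of Mitf was lost in 9 of 17 such fits and with a term for Y-linked counts (-3.05). At the other end were BC051665, Slc15a2, Mbnl3, Vgll3, Pdzk1ip1 and Mab21l3. The Slc15a2 difference was 5.48 ± 1.22 (adjusted p = 0.0028), and 4.27 without Ctrl early embryo 9, still called. Mab21l3 rose by 2.02 ± 0.50 in KO, from a median of 4.44 to 21.6 CPM, against a Ctrl late median of 0, a difference of 3.74 ± 0.93 (adjusted p = 0.0081). Several of these rest on few embryos. BC051665 had 0 UMIs in all KO early ICMs and 427 over the late ones, at least 165-fold higher against a floor of 3 UMIs over the group, and embryos 1-2 and 2-2 had nearly all of them. Without Ctrl early embryo 9 the differences of BC051665 (3.47, adjusted p = 0.74), Vgll3 (2.58, 0.45) and Pdzk1ip1 (3.55, 0.078) were not called, and the Vgll3 and Mbnl3 differences were lost in 9 and 12 of 17 fits that left out 1 embryo. Of these 12 genes, only Slc15a2, Rbmxl2 and Mbnl3 were called with Sox2 Ctrl as reference, only Slc15a2, Ankrd45 and Rbmxl2 with late embryos numbered 2-n alone, and Foxd3, Rbmxl2 and Mitf were not called with 1-n alone.

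Stage genes called in other embryos gave a yardstick. In Sox2 Ctrl ICMs, of the Sox2 line with 8 embryos at each stage, which lack maternal Sox2, carry 1 intact Sox2 allele and were cultured alike, 272 genes rose (1.94%) and 135 fell (0.961%). Of the 272 risers, 95 (34.9%) rose in Oct4 KO and 163 (59.9%) in Oct4 Ctrl, beside 9.76% and 9.52% of all genes tested, and 63 rose in both. Their median change was 0.99 in KO and 1.69 in Ctrl, and the difference was called higher in KO for 9 and lower for 19, beside 2.07% and 1.04% of all genes. Of the 135 fallers, 26 (19.3%) fell in Oct4 KO and 63 (46.7%) in Oct4 Ctrl, beside 6.2% and 6.04% of all genes tested, with medians of -0.44 and -1.08, and the difference was called higher in KO for 15 and lower for none. The mean log2(CPM + 1) of the risers was 1.73, 1.98 and 2.22 in KO early ICMs and 2.35, 2.90 and 3.30 in KO late ICMs, so the KO groups did not overlap. In Ctrl the medians were 2.10 and 3.49. For the fallers the KO median went from 4.13 to 3.58 and the Ctrl median from 4.13 to 3.04. These mean levels were not tested.

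Late KO ICMs differed from each other more than these medians show. The summed level of the naive pluripotency factors was 2363 to 3316 CPM in those numbered 1-n and 3405 to 4237 CPM in those numbered 2-n. Embryo 1-2 had the lowest Sox2 (10.4 CPM), Klf4 (17.3 CPM), Nanog (225 CPM) and Dppa2 (121 CPM) and no Esrrb UMI, and the highest Cdx2 (88.2 CPM), Gata2 (130 CPM) and Tfap2a (386 CPM). Embryo 2-7 had the highest Sox2 (220 CPM), Klf4 (188 CPM) and Nanog (685 CPM) and the lowest Krt8 (349 CPM), Krt18 (310 CPM), Mbnl3 (1.27 CPM) and Slc15a2 (7.62 CPM). The order was not the same for every gene: embryo 2-6 had Nanog at 608 CPM together with the highest Id2 (1911 CPM), and Gata3 spanned only 322 to 583 CPM. By list sums the naive pluripotency factors were lowest in embryo 1-7 (2363 CPM) and highest in embryo 2-6 (4237 CPM). The trophectoderm transcription factors were lowest in embryo 1-8 (1939 CPM) and highest in embryo 2-6 (4139 CPM). With 1 library per embryo, cells that differ within an ICM and ICMs that differ as a whole cannot be told apart.

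The octamer ATGCAAAT, the sequence bound by POU factors such as Oct4, was looked for in promoter windows from RefSeq (GRCm38.p6) that run from 250 bases before to 50 after a gene's start. It was found, on either strand (ATTTGCAT on the other), in 570 of 32851 windows (1.74%) and in 179 of 12847 windows of genes tested (1.39%). The share was 2.29% (7 of 306) for genes with a higher and 2.61% (4 of 153) for genes with a lower stage change in KO, and 1.97% and 1.07% for genes that rose and fell in KO. These small counts are a description only. Of 47 genes named as key genes or by rank, 41 matched a window (54 windows in all), and Cdx2, Tspan8 and Mab21l3 hold it. Genes on the chromosome of the key gene Gata6 were passed over when sites were listed, so the list may be incomplete. The sites of these 3 genes, which all rose in KO, are shown on the strand of the gene, with the octamer in capitals and 10 bases on each side:
Cdx2: aacttttaaaATGCAAATcgtgtttctg
Mab21l3: ctgggaggatATGCAAATttggggccgc
Tspan8: ggggggggggATGCAAATcgaagtgaga
The Cdx2 site begins 147 bases before the RefSeq start (chr5:147307379-147307406, minus strand). The Mab21l3 site begins 66 bases before it (chr3:101836272-101836299, minus strand), and the Tspan8 site 195 bases before it (chr10:115817079-115817106, plus strand). No binding was measured here, and none of Nanog, Klf4, Esrrb or Sox2 had the octamer in this window.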

How the data were processed

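Single ICM libraries enriched for 3′ ends were used. According to its methods, the authors used UMI-tools for the UMIs, Cutadapt for trimming, TopHat2 for alignment to mm10 (GENCODE vM23), featureCounts for assignment to genes and TRUmiCount to estimate unique transcripts. Whether strand was used is not stated, so of the 152 genes named below, the 60 that overlap another gene are uncertain to that extent. The deposited counts are whole UMIs for 29022 genes, not normalized. The deposited rlog values, a regularized log2 scale the authors made with DESeq2, served only for an alternative.

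Genes with a UMI in at least a 0.5 share of the embryos of a stage were tested (14053). After TMM scaling, the counts were fitted with 1 mean per group over 96 Ctrl and KO embryos in 12 groups with the edgeR 4.0.16 quasi-likelihood test (R 4.3.3), which was tested on simulated data. A log2 fold change is the contrast of group means, its SE is its size divided by the square root of F, and the p-values were adjusted by Benjamini-Hochberg over all genes. The difference of stage changes was an interaction contrast. Intervals of ratios of UMI sums (95%, exact Poisson) and floors of 3 UMIs cover counting error only. In KO embryos 3 UMIs are 3.12 to 4.68 CPM. No pair of replicates had near-equal counts: the lowest chi-square per gene was 3.19.

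The members and lists were chosen with earlier results of these data known. Genes were named as Pou5f1 and 16 key genes, as the 10 highest and 10 lowest stage changes in KO without overlap, as the 6 highest and 6 lowest differences (both among called genes with a group mean of at least 20 CPM, passing over predicted genes, Riken clones, numbered pseudogenes, histone genes, Xist, Tsix and Y-linked genes), and from each list as up to 4 called and 2 uncalled members. Some genes that this rule names are not reported here. Genes outside this rule are said to be chosen after their values were seen. Alternatives were DESeq2 1.42.0, other scalings and filters, limma 3.58.1 on rlog, counts thinned to equal depth, a term for Y-linked counts, the late ICMs numbered 1-n or 2-n alone, Sox2 Ctrl as reference, the compared groups alone, no minimum fold, and each of the 16 KO ICMs left out in turn. Leaving out Oct4 Ctrl early embryo 9, which had high trophectoderm genes, was chosen after seeing the data, and the other Oct4 Ctrl embryos were not left out. The morulae of the Ctrl and KO groups entered the filter and the fit, and so the dispersions, but no comparison. MWT embryos were not used here, nor were ERCC spike-ins.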

Additional observations from a re-analysis of the deposited data

Results flagged for a closer look

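Single embryos stood apart from the 7 others of their group by Dixon's criterion in 10 of 76 gene and group combinations examined, where chance gives about 1 in 20. Among KO late ICMs these were Cdx2 in embryo 1-2 (88.2 CPM), Gata4 (7.84 CPM) and Sox17 (6.28 CPM) in embryo 2-5, and Pou5f1 in embryo 2-2 (1.26 CPM). Among KO early ICMs they were Esrrb (72.5 CPM) and Tbx20 (67.3 CPM) in embryo 14, Fgf4 in embryo 11 (60.6 CPM), Pou5f1 (4.66 CPM) and Sox17 (1.17 CPM) in embryo 5, and Mbnl3 in embryo 1 (0.968 CPM). The values of Sox17, Mbnl3 and Pou5f1 are a few UMIs or fewer.

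The stage change differed between KO and Ctrl, by the interaction contrast of the edgeR fit, for 8 of the key genes. The log2 difference (KO minus Ctrl) was 1.80 for Cdx2 and 1.36 for Gata6, and it was -1.93 for Sox2, -1.50 for Nanog, -1.40 for Esrrb, -1.34 for Klf4, -1.17 for Klf2 and -2.25 for Fgf4. Among the genes named by rank it was 8.45 for BC051665, 5.48 for Slc15a2, 4.47 for Mbnl3, 4.28 for Vgll3, 4.20 for Pdzk1ip1 and 3.74 for Mab21l3. At the low end it was -4.95 for Ankrd45, -4.28 for Fbln5, -3.60 for Foxd3, -3.43 for Rbmxl2, -3.36 for Syt9 and -3.23 for Mitf. Genes by rank were picked for the size of this difference, so their sizes are a description.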

How the results depend on the processing

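The KO stage change called 2242 genes and 2051 to 2376 when 1 KO embryo was left out. The difference called 437 genes and 370 to 503 likewise, with 412 when Ctrl early embryo 9, chosen after seeing the data, was left out. Counts that moved by more than 1.5 times were 4564 for KO and 4560 for Ctrl with no minimum fold, 972 and 857 with limma on rlog, and, for the difference, 1428 (853 higher, 575 lower) with Sox2 Ctrl as reference, 166 with late ICMs numbered 2-n and 249 with thinned counts. Scaling by totals alone moved the split of KO calls to 1193 higher and 1052 lower. Of the called values of named or listed genes, 3 changed sign: Aen to -0.16 and Utf1 to 0.41 with Sox2 Ctrl as reference, and Il6st to -1.05 with late ICMs numbered 1-n. The causes were not tested. Of 106 called KO values of named or listed genes, 74 were called in every alternative, and of 60 called differences 5 were (Nanog, Sox2, Psat1, Slc15a2 and Wwtr1). Cdx2 was not called in KO with late ICMs numbered 2-n (0.71). No paired analysis was possible because the early and late KO embryos share no replicate number. Depth limits genes near 3 UMIs, and late libraries were shallower.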
